A study of Homo sapiens with 12 samples.

Results

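The genes described here are 47 interferon-stimulated genes, among them 3 members of the GBP family of interferon-induced GTPases, in 2 enzalutamide-resistant prostate cancer cell lines in which the atypical chemokine receptor CXCR7 (gene symbol ACKR3) was knocked down. They were taken by name from a list, with no threshold on measured values, and all 47 are found among the 26439 genes of the deposited table. The list was chosen with earlier results of these data known. A gene was tested where at least 3 of the 12 libraries reached 0.5 RPKM (reads scaled to gene length and to the number of mapped reads), which 14202 genes and 40 of the 47 did. The study asked which genes respond to loss of CXCR7 in cells that grow in the presence of the androgen receptor antagonist enzalutamide. LNCaP-EnzR and C4-2B-EnzR (labelled MDVr by the submitters) are resistant derivatives of LNCaP, an androgen receptor-positive line from a lymph node metastasis of prostate cancer, and of C4-2B, a bone-metastatic subline of LNCaP. Enzalutamide was present at 2 µM for LNCaP-EnzR and at 10 µM for C4-2B-EnzR cells. The sample titles also carry a P number, not explained there, that differs between the lines. Line, dose and whatever that label marks therefore cannot be told apart. In each line, 3 libraries came from cells infected with a lentivirus carrying a hairpin against CXCR7 (shCXCR7) and 3 from cells infected with the pLKO control lentivirus (LKO), with RNA taken 4 days after infection. All groups were therefore exposed to lentivirus and to enzalutamide, and no uninfected cells are among them. Nothing states that the 3 libraries of a group came from separate cultures, so the p-values measure how far libraries vary, and that variation may be technical.

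Interferons are secreted cytokines. Type I and type III interferons act through the kinases JAK1 and TYK2 and a complex that holds STAT2 and IRF9 and binds the interferon-stimulated response element (ISRE) in promoters, while interferon gamma acts mainly through the gamma-activated site (GAS). The genes switched on include sensors of foreign RNA, enzymes that degrade viral RNA or block translation, proteins that hinder virus entry or budding, the ubiquitin-like modifier ISG15 with its conjugating enzymes, and the GBPs, large GTPases that attack intracellular pathogens. Many of these genes keep a basal level in tumour cells without added interferon.

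The targeted gene followed the labels. ACKR3 was at 56.34, 51.15 and 39.98 RPKM in LNCaP-EnzR shCXCR7 libraries, against 123.6, 119 and 112.5 RPKM in LNCaP-EnzR LKO libraries, a log2 fold change of -1.28 ± 0.13 (SE, limma adjusted p = 0.000175). In C4-2B-EnzR cells ACKR3 was at 22.2, 23.7 and 18.9 RPKM in shCXCR7 libraries, against 83.25, 86.5 and 85.9 RPKM in LKO libraries, a log2 fold change of -1.97 ± 0.088 (adjusted p = 0.000109). Reads within genes numbered 6380790 to 9832445 per library, as computed from the steps of the RPKM values. One library stood apart. In LNCaP-EnzR shCXCR7 replicate 3, 27.5% of the reads behind the RPKM denominator lay in genes, against 67.0% to 75.5% in the other 11 libraries, and 1636 genes were at 0, against 8719 to 9652 genes in each of the others. Genes at 0 in the other 11 libraries had a median of 0.234 RPKM there. All values below were rescaled within each line by median-of-ratios factors, and LNCaP-EnzR results are given with and without this library. The 12 luminal prostate markers summed to 677 to 859 RPKM in LNCaP-EnzR shCXCR7 against 877 to 887 RPKM in LNCaP-EnzR LKO libraries, and to 984 to 1006 RPKM in C4-2B-EnzR shCXCR7 against 1141 to 1181 RPKM in C4-2B-EnzR LKO libraries, and none of the 12 was at 0 throughout a group. The 12 blood cell markers summed to 1.66 to 12.9 RPKM in LNCaP-EnzR shCXCR7 libraries, with the highest value in replicate 3, against 1.36 to 2.65 RPKM in LNCaP-EnzR LKO libraries, and to 1.67 to 2.92 RPKM in C4-2B-EnzR shCXCR7 against 1.20 to 2.46 RPKM in C4-2B-EnzR LKO libraries. The 7 markers of plasmacytoid dendritic cells and macrophages summed to 2.86 to 5.71 RPKM in LNCaP-EnzR shCXCR7 against 4.325 to 4.549 RPKM in LNCaP-EnzR LKO libraries, and to 5.57 to 6.54 RPKM in C4-2B-EnzR shCXCR7 against 6.94 to 10.06 RPKM in C4-2B-EnzR LKO libraries. Most of this was CD68, which was lower in shCXCR7 in both lines (log2 fold changes -0.43 and -0.43, limma adjusted p = 0.00883 and 0.0472), and IL3RA was above 0 in all 12 libraries, at no more than 0.505 RPKM, while CLEC4C and LILRA4 were at 0 in the 11 libraries other than LNCaP-EnzR shCXCR7 replicate 3. The part of these markers in the results was not tested. In bulk RNA, fewer cells with a gene and less of it per cell cannot be told apart.

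After CXCR7 knockdown, interferon-stimulated genes were called in both directions. The 3 GBP genes, the RNA sensor IFIH1, the secreted glycoprotein LGALS3BP, IFI27 and DTX3L rose in both lines. IFITM2, IFITM3, IFI6, STAT2 and TRIM22 fell in both lines, and 12 of the 40, ISG15 and IFIT1 among them, passed the test in neither line. The shares of all genes called in both lines or in neither were not computed, so these groupings are descriptions. The calls of TRIM22 in each line, and of DTX3L in C4-2B-EnzR, were lost in 5 of 6 fits that left out 1 library. In LNCaP-EnzR, 16 of the 40 tested genes were higher and 5 lower in shCXCR7 at an adjusted p under 0.05, against 14.4% and 18.7% of all genes tested. Without replicate 3 of shCXCR7 the counts were 14 higher and 5 lower of 39 tested genes, against 20.0% and 21.4% of all genes. In C4-2B-EnzR, 11 were higher and 8 lower, against 19.3% higher and 19.3% lower among all genes. At the study's own limits, an adjusted p under 0.001 with a change of 2-fold or more, 3 were higher and 1 lower in LNCaP-EnzR (1.61% and 2.01% of all genes), and 3 higher and 1 lower in C4-2B-EnzR (1.21% and 1.81% of all genes). Over the 40 genes the median log2 fold change was 0.32 in LNCaP-EnzR cells and 0.23 in C4-2B-EnzR, against 0.0057 and 4.3e-05 over all tested genes. These counts and medians need a reservation: GBP1, GBP2, GBP3, IFI27 and IFIT3 passed the filter only through shCXCR7 libraries and could hardly have been tested without being higher there. Of the 35 with an LKO library at 0.5 RPKM or more, 12 were higher and 5 lower in LNCaP-EnzR (median log2 fold change 0.22), against 14% and 19% of the 13984 genes of that kind, and 7 were higher and 8 lower in C4-2B-EnzR (median 0.15), against 18.8% and 19.6%. The shares of genes called in C4-2B-EnzR were thus near those of all genes once these 5 were set aside. This count was made after the values were seen.

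**Figure D1:**
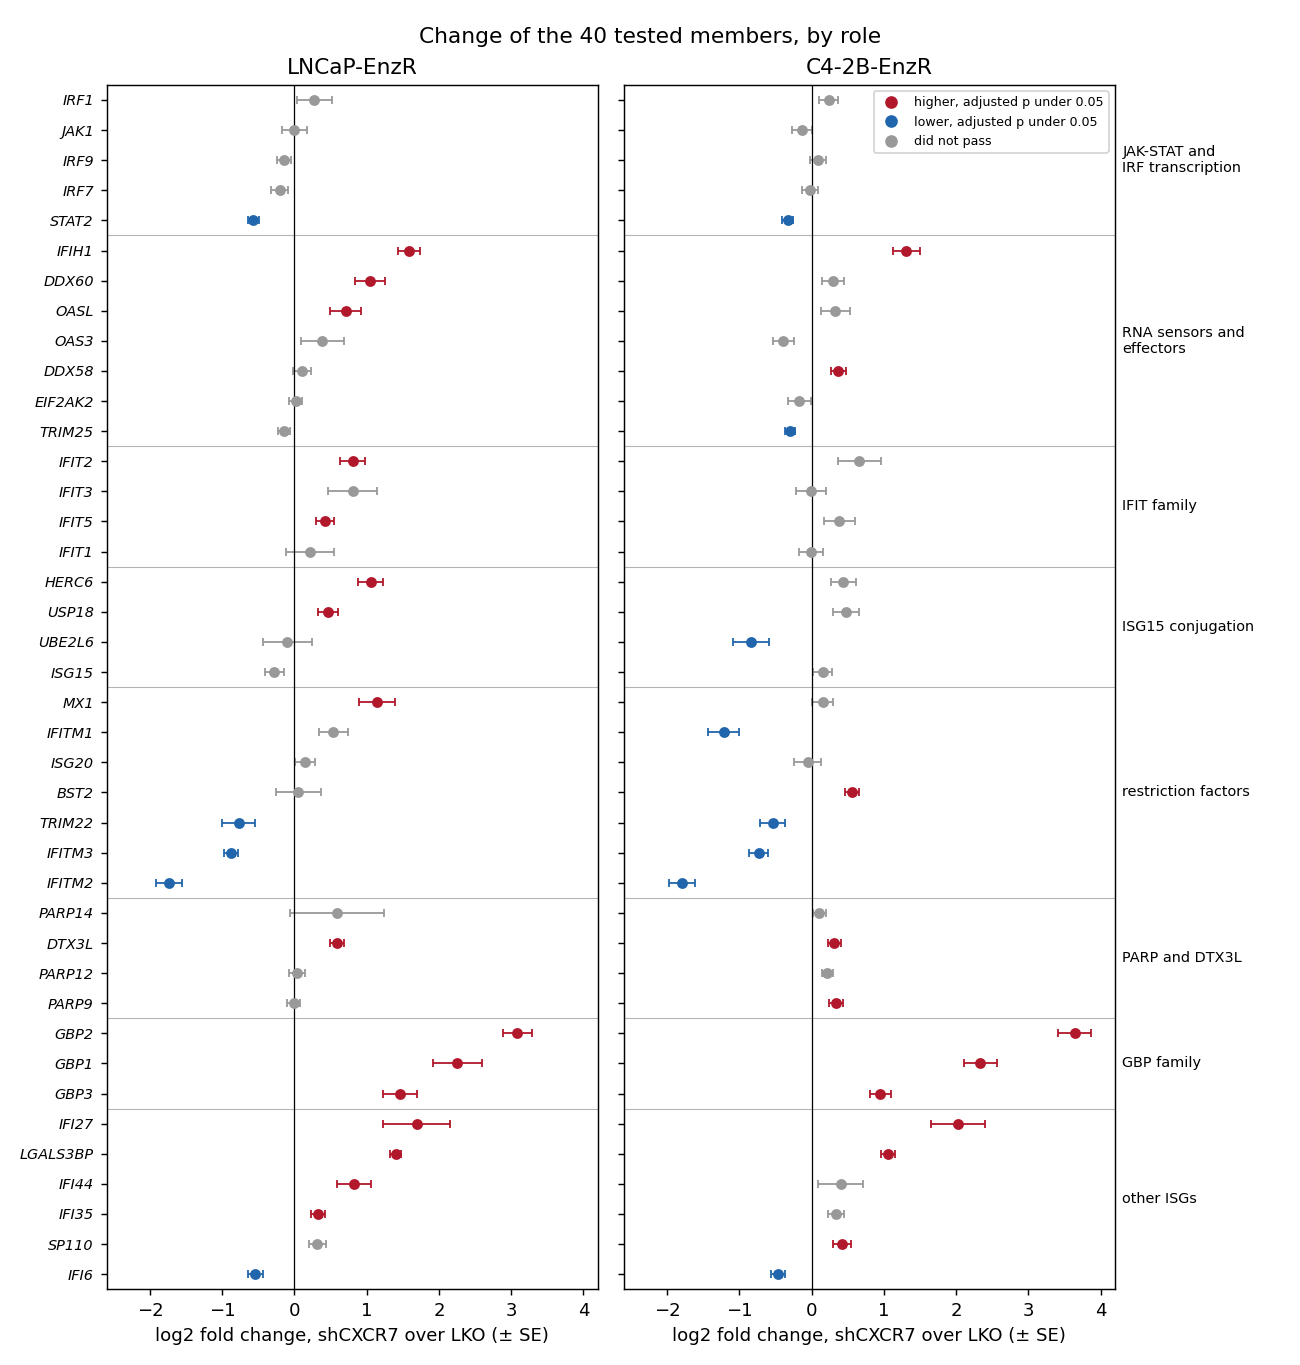
Log2 fold change of shCXCR7 over LKO (x axis, with SE) for the 40 tested interferon-stimulated genes (y axis, grouped by role), LNCaP-EnzR on the left and C4-2B-EnzR on the right, 3 libraries a group. Red points are higher and blue points lower at an adjusted p under 0.05, and grey points did not pass; GBP2 is highest in both lines, at 3.08 and 3.64, and IFITM2 lowest, at -1.74 and -1.80.

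No interferon gene reached the filter. The 10 interferon genes listed (of the alpha, beta, epsilon, kappa, omega, gamma and lambda types) had 0 tested members, and in C4-2B-EnzR all 10 were at 0 in all 6 libraries. In LNCaP-EnzR the values above 0.15 RPKM were all in shCXCR7 replicate 3, where IFNL3 was highest at 1.72 RPKM. For the interferon receptors, 1 of 5 tested genes rose and 1 fell in LNCaP-EnzR, and 1 rose and 0 fell in C4-2B-EnzR. IFNAR2, a subunit of the type I receptor, rose by 0.50 ± 0.11 on the log2 scale in LNCaP-EnzR (limma adjusted p = 0.00712).

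The promoters of these genes were searched for the ISRE, spelled GAAANNGAAA, on both strands. Of the 47 genes, 38 matched an entry in the RefSeq promoter table (GRCh38.p14, 250 bases before to 50 after the gene start), with 49 promoters among them. The ISRE letters were in 29 of the 49 promoters (59.2%), against 3.57% of all 35116 promoters, and the GAS letters TTCNNNGAA, which read the same on both strands, in 13 of 49 (26.5%), against 7.66% of all. Matches of both motifs overlapped in 5 of these promoters, those of IFI27 among them. Some genes have more than 1 promoter here, and those of IFI27, like those of IFI44, hold the same sites. By gene, 25 of the 38 held the ISRE letters and 12 the GAS letters. The genes were listed as interferon-stimulated, so an excess over all promoters says nothing about the knockdown. The windows below are printed because the same letters stand before genes that rose in both lines (GBP1, GBP3, IFIH1, LGALS3BP), that fell in both lines (IFITM3, IFI6) and that passed in neither (ISG15). Each runs from 170 bases before to 30 after the gene start, 5′ to 3′ on the gene's strand, with ISRE matches in capitals.
GBP1: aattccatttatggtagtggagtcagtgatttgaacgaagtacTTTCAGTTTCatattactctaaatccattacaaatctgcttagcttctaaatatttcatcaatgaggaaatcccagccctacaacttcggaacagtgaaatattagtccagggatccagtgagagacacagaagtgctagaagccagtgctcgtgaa
GBP3: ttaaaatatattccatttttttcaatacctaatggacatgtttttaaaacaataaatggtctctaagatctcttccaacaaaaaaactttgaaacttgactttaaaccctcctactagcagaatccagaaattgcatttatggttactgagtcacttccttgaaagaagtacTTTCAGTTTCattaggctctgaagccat
IFIH1: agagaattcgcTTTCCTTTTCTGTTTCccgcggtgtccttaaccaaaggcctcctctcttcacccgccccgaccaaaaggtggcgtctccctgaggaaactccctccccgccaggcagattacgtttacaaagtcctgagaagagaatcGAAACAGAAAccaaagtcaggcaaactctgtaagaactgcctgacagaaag
LGALS3BP: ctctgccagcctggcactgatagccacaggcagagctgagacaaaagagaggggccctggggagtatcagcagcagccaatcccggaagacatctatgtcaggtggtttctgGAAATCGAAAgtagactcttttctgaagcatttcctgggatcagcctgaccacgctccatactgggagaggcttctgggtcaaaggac
IFITM3: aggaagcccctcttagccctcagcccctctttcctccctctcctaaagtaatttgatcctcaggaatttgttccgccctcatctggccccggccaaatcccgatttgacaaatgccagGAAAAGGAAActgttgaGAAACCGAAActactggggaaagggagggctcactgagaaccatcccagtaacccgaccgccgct
IFI6: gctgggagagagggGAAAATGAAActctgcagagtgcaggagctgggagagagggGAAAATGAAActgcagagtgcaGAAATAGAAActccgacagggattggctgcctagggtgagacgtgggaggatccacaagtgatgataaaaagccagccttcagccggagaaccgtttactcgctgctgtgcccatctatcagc
ISG15: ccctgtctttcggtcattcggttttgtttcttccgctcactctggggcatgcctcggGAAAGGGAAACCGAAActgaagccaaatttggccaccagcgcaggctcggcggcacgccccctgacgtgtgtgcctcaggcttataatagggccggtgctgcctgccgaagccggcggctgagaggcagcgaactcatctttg
They lie at chr1:89065179-89065378 (minus strand, GBP1), chr1:89022837-89023036 (minus, GBP3), chr2:162318655-162318854 (minus, IFIH1), chr17:78979894-78980093 (minus, LGALS3BP), chr11:320831-321030 (minus, IFITM3), chr1:27672163-27672362 (minus, IFI6) and chr1:1013327-1013526 (plus, ISG15). The first base of the match is at -127 in GBP1 and at 3 in GBP3, counted from the gene start with no position 0. The GBP1 and GBP3 windows share a run of 19 bases, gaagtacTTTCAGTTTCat, which holds the match. IFIH1 holds 3 matches, of which the first 2 overlap, and IFI6 holds 3 separate ones. The ISRE letters were in 6 of 6 promoter-matched genes that rose in both lines, in 6 of 10 that rose in 1 line, in 2 of 3 that fell in both, in 1 of 3 that fell in 1 line, and in 8 of 11 that passed in neither. These are to be read against 25 of all 38 matched genes, and with so few genes in a class they are descriptions. GBP2 and IFITM2 are not among those matched, and GBP1, GBP3 and IFI27 are among the genes that passed the filter only through shCXCR7 libraries. The C4-2B-EnzR call of DTX3L, another of the 6, was lost in 5 of 6 fits that left out 1 library.

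GBP2 and GBP1 showed the largest rises of the 40 tested genes. GBP1, GBP2 and GBP3 passed the filter only through shCXCR7 libraries and could hardly have been tested without being higher there. Their fold changes, p-values and lack of overlap, here and below, are therefore given as descriptions. GBP1, GBP2 and GBP3 lie in 1 cluster on the minus strand of chromosome 1 (GRCh38 positions 89006679 to 89150456, GENCODE 44) and encode interferon-inducible GTPases that coat and break open pathogen vacuoles and bacteria. GBP2 was at 3.16, 3.30 and 3.095 RPKM in LNCaP-EnzR shCXCR7 libraries, against 0.116, 0.122 and 0.240 RPKM in LNCaP-EnzR LKO libraries. In C4-2B-EnzR cells GBP2 was at 4.76, 3.76 and 6.09 RPKM in shCXCR7 libraries, against 0.257, 0.125 and 0.0961 RPKM in LKO libraries. All 6 shCXCR7 libraries lay far above all 6 LKO libraries, with no overlap, and LNCaP-EnzR shCXCR7 replicate 3 was level with replicates 1 and 2. The log2 fold change was 3.08 ± 0.20 for LNCaP-EnzR (limma adjusted p = 1.9e-05; 3.20 ± 0.18, adjusted p = 0.000476, without replicate 3) and 3.64 ± 0.22 in C4-2B-EnzR (adjusted p = 0.000165). These fold changes are on the scale log2(RPKM + 0.25), which understates the change of genes near 0; the ratio of mean RPKM was 20.0 in LNCaP-EnzR cells and 30.6 in C4-2B-EnzR. A voom fit of the recovered reads gave log2 fold changes of 4.32 for GBP2 and 4.56 for GBP1 in LNCaP-EnzR, and of 4.93 for GBP2 and 4.95 for GBP1 in C4-2B-EnzR. The reads behind GBP2 numbered 182, 218 and 237 in LNCaP-EnzR shCXCR7 against 5, 8 and 12 in LNCaP-EnzR LKO libraries.

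GBP1 followed the same pattern at a lower level. It was at 0.942, 1.11 and 1.45 RPKM in LNCaP-EnzR shCXCR7 libraries, against 0.0314, 0.0206 and 0.0813 RPKM in LNCaP-EnzR LKO libraries, which rest on 1, 1 and 3 reads. C4-2B-EnzR cells had GBP1 at 1.22, 0.859 and 1.58 RPKM in shCXCR7 libraries, against 0.0804, 0.0338 and 0 RPKM in LKO libraries (3, 1 and 0 reads). Few GBP1 reads were found in LKO cells of either line and the groups did not overlap. The log2 fold change was 2.26 ± 0.33 for LNCaP-EnzR (limma adjusted p = 0.00112; 2.23 ± 0.16, adjusted p = 0.000827, without replicate 3) and 2.33 ± 0.23 in C4-2B-EnzR (adjusted p = 0.000742). GBP3 was at 1.16, 1.36 and 1.70 RPKM in LNCaP-EnzR shCXCR7 libraries, against 0.284, 0.414 and 0.353 RPKM in LNCaP-EnzR LKO libraries, and at 0.878, 1.18 and 1.04 RPKM in C4-2B-EnzR shCXCR7 libraries, against 0.376, 0.441 and 0.418 RPKM in C4-2B-EnzR LKO libraries. Its basal level was higher than those of GBP1 and GBP2, both groups were again apart in each line, and the log2 fold change was 1.46 ± 0.23 for LNCaP-EnzR (adjusted p = 0.00172; 1.37 ± 0.15, adjusted p = 0.00248, without replicate 3) and 0.95 ± 0.14 in C4-2B-EnzR (adjusted p = 0.00348). The GBP genes resemble each other in sequence, so reads that fit more than 1 of them may have been split between them or dropped.

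**Figure D2:**
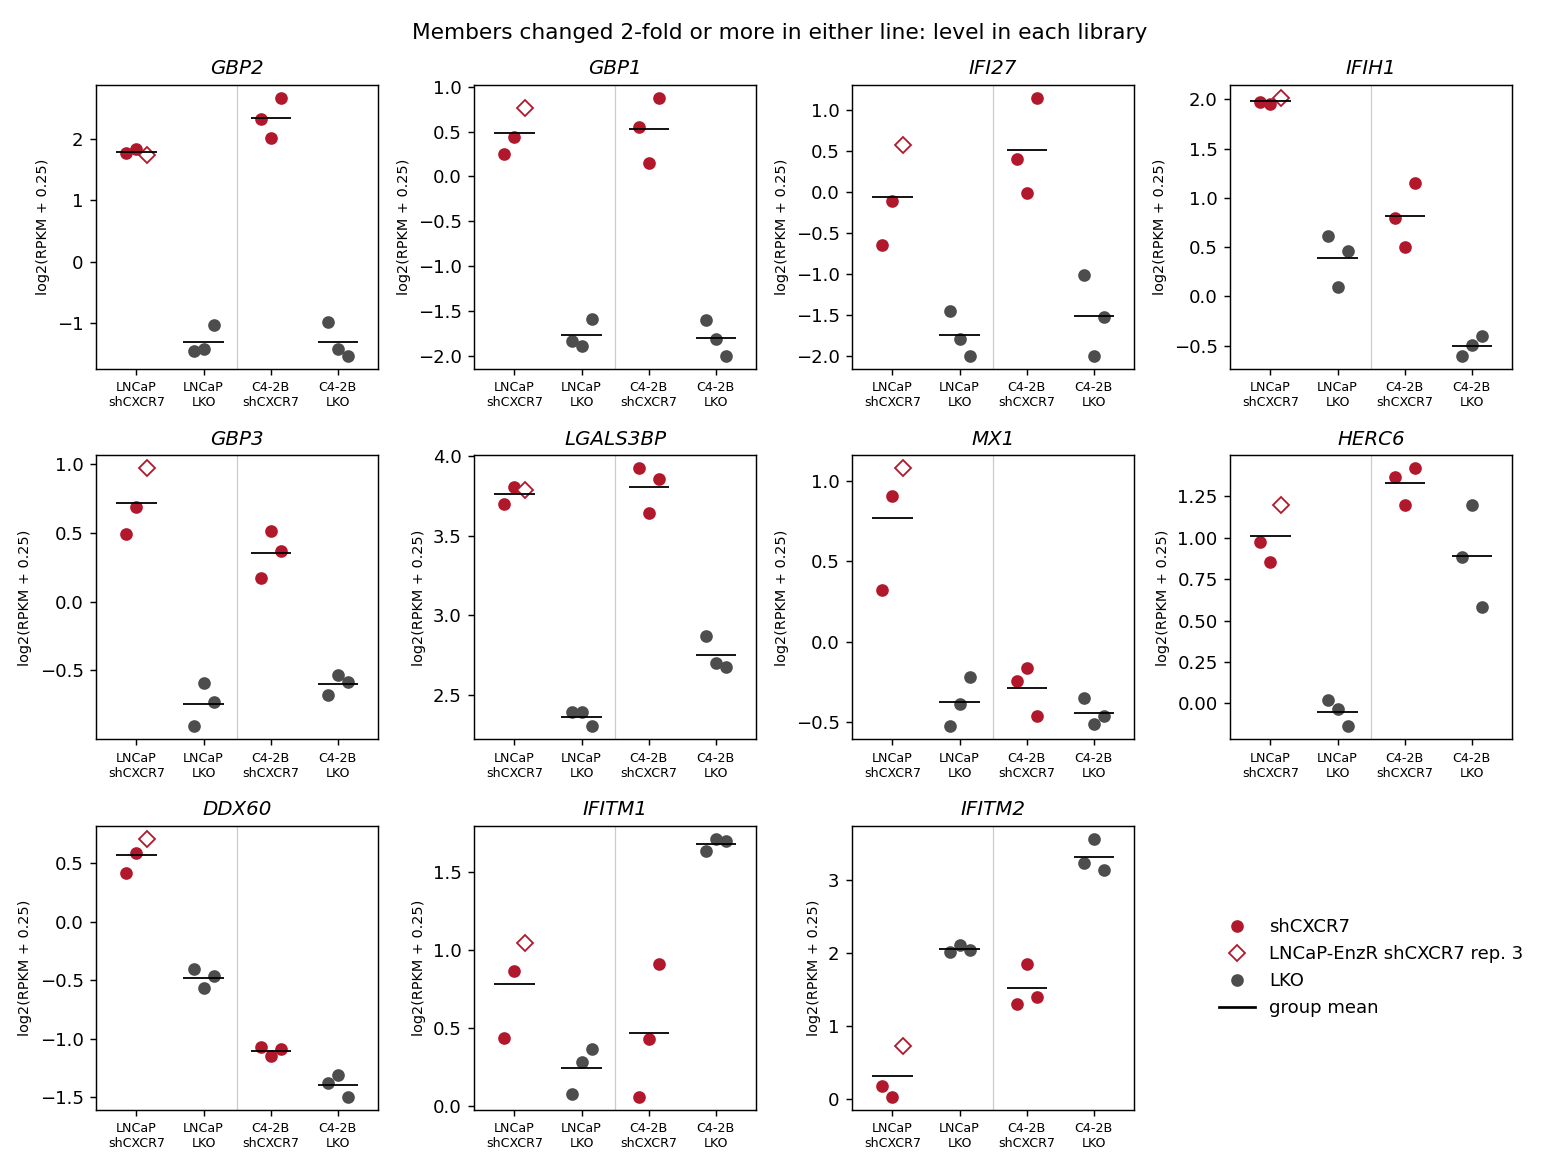
Level of the 11 interferon-stimulated genes that changed 2-fold or more at an adjusted p under 0.05 in either line, as log2(RPKM + 0.25) after rescaling (y axis, its own range in each panel), by group (x axis). Points are libraries (3 a group, with an open diamond for LNCaP-EnzR shCXCR7 replicate 3) and lines are group means. The shCXCR7 and LKO points overlap for MX1 in C4-2B-EnzR and for no other of these genes in either line, though HERC6 comes close in C4-2B-EnzR. These genes were chosen by their change, and the share of all genes without overlap was not computed.

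Among sensors and effectors of foreign RNA, 3 of 7 tested genes rose and 0 fell in LNCaP-EnzR, and 2 rose and 1 fell in C4-2B-EnzR. Counts by role, here and below, are to be read against the shares over all genes. These were 14.4% higher and 18.7% lower in LNCaP-EnzR and 19.3% each way in C4-2B-EnzR. With so few genes in a role, such counts are descriptions. IFIH1 (chromosome 2, positions 162267074 to 162318684), which encodes the long double-stranded RNA sensor MDA5, was at 3.67, 3.63 and 3.79 RPKM in LNCaP-EnzR shCXCR7 libraries, against 1.28, 0.822 and 1.12 RPKM in LNCaP-EnzR LKO libraries. C4-2B-EnzR cells had IFIH1 at 1.48, 1.17 and 1.97 RPKM in shCXCR7 libraries, against 0.408, 0.459 and 0.507 RPKM in LKO libraries. The groups were apart in both lines, on a lower level in C4-2B-EnzR, with log2 fold changes of 1.59 ± 0.15 in LNCaP-EnzR (limma adjusted p = 0.000103; 1.60 ± 0.18, adjusted p = 0.00243, without replicate 3) and 1.31 ± 0.19 in C4-2B-EnzR (adjusted p = 0.00281). DDX58, which encodes RIG-I, the sensor of RNA with a 5′ triphosphate, was at 1.87, 1.72 and 1.83 RPKM in LNCaP-EnzR shCXCR7 libraries against 1.73, 1.67 and 1.56 RPKM in LNCaP-EnzR LKO libraries, where the groups overlapped and the test did not pass (log2 fold change 0.11 ± 0.12, adjusted p = 0.541). In C4-2B-EnzR, DDX58 rose by 0.37 ± 0.11 (adjusted p = 0.0322), a call lost (adjusted p up to 0.104) with any 1 library other than replicate 1 of LKO left out. DDX60, a helicase that has been described as a helper of RIG-I signalling, was at 1.09, 1.25 and 1.39 RPKM in LNCaP-EnzR shCXCR7 libraries, against 0.505, 0.425 and 0.476 RPKM in LNCaP-EnzR LKO libraries. It rose there by 1.05 ± 0.21 (adjusted p = 0.00505; 1.01 ± 0.13, adjusted p = 0.00343, without replicate 3). In C4-2B-EnzR DDX60 was at 0.226, 0.201 and 0.220 RPKM in shCXCR7 against 0.134, 0.153 and 0.105 RPKM in LKO libraries, on at most 17 reads, and did not pass (0.29 ± 0.15, adjusted p = 0.181). OASL, an OAS-like protein without the enzyme activity of its relatives, rose by 0.71 ± 0.21 in LNCaP-EnzR (adjusted p = 0.0305), and the call was lost without replicate 3 of shCXCR7 (0.67 ± 0.23, adjusted p = 0.0726) and without shCXCR7 replicate 2 or any LKO replicate (adjusted p up to 0.118). OAS3, which makes the activator of RNase L, and EIF2AK2, the translation-blocking kinase PKR, passed in neither line, and TRIM25, a ubiquitin ligase of the RIG-I pathway, fell by 0.30 ± 0.071 in C4-2B-EnzR (adjusted p = 0.017, up to 0.0635 with replicate 2 of LKO, or 1 or 2 of shCXCR7, left out) and did not pass in LNCaP-EnzR (-0.14 ± 0.085, adjusted p = 0.235).

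Genes of JAK-STAT signalling and IRF transcription factors on the list gave no higher call. Of JAK1, STAT2, IRF1, IRF7 and IRF9, 0 rose and 1 fell in each line. STAT2, the partner of IRF9 in the ISRE-binding complex, was at 9.66, 10.0 and 8.93 RPKM in LNCaP-EnzR shCXCR7 libraries, against 14.1, 14.6 and 14.1 RPKM in LNCaP-EnzR LKO libraries. In C4-2B-EnzR it was at 10.49, 10.6 and 10.86 RPKM in shCXCR7 libraries, against 14.6, 13.5 and 12.3 RPKM in LKO libraries. STAT2 was lower in all 6 shCXCR7 libraries than in any LKO library, with log2 fold changes of -0.57 ± 0.079 in LNCaP-EnzR (limma adjusted p = 0.000796; -0.52 ± 0.048, adjusted p = 0.00143, without replicate 3) and -0.33 ± 0.076 in C4-2B-EnzR (adjusted p = 0.0157, up to 0.0627 without shCXCR7 replicate 1 or 2). IRF9 averaged 5.50 ± 0.52 RPKM in LNCaP-EnzR shCXCR7 and 6.10 ± 0.34 RPKM in LNCaP-EnzR LKO libraries (SD, n = 3 each), and the groups overlapped. IRF7, which drives interferon genes, and IRF1, a factor of the interferon gamma response, did not pass in either line, with log2 fold changes of -0.20 and 0.27 in LNCaP-EnzR and of -0.02 and 0.23 in C4-2B-EnzR.

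Of the 4 IFIT genes, whose proteins bind RNA that lacks a host cap, 2 rose in LNCaP-EnzR cells and 0 in C4-2B-EnzR. IFIT2 was at 1.73, 1.56 and 1.99 RPKM in LNCaP-EnzR shCXCR7 libraries, against 1.015, 0.955 and 0.733 RPKM in LNCaP-EnzR LKO libraries, a log2 fold change of 0.81 ± 0.17 (limma adjusted p = 0.00745; 0.74 ± 0.15, adjusted p = 0.0162, without replicate 3). In C4-2B-EnzR IFIT2 was at 0.902, 0.6998 and 1.19 RPKM in shCXCR7 and 0.678, 0.236 and 0.636 RPKM in LKO libraries, where the groups were apart but the test did not pass (0.66 ± 0.30, adjusted p = 0.123). IFIT5 rose by 0.42 ± 0.13 in LNCaP-EnzR (adjusted p = 0.035), a call lost in 5 of 6 fits that left out 1 library, that without shCXCR7 replicate 3 among them (adjusted p = 0.0503) and all but that without LKO replicate 1 (adjusted p up to 0.139). IFIT1 values in LNCaP-EnzR shCXCR7 were 0.456, 0.397 and 0.982 RPKM, against 0.466, 0.479 and 0.437 RPKM in LNCaP-EnzR LKO libraries, so that only replicate 3 lay above the LKO range, and the log2 fold change was 0.22 ± 0.33 with it and -0.08 ± 0.12 without it (adjusted p = 0.658 and 0.648). IFIT3, at 0.582, 0.550 and 1.06 RPKM in LNCaP-EnzR shCXCR7 and 0.439, 0.244 and 0.233 RPKM in LNCaP-EnzR LKO libraries, did not pass (adjusted p = 0.101) and was not testable without replicate 3.

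ISG15, the ubiquitin-like modifier itself, was among the most abundant of these genes and did not pass in either line. It was at 60.6, 61.4 and 46.7 RPKM in LNCaP-EnzR shCXCR7 libraries, against 62.3, 71.7 and 69.1 RPKM in LNCaP-EnzR LKO libraries (log2 fold change -0.28 ± 0.13, limma adjusted p = 0.13), and at 76.6, 66.5 and 53.1 RPKM in C4-2B-EnzR shCXCR7 libraries, against 61.6, 54.9 and 57.9 RPKM in C4-2B-EnzR LKO libraries (0.15 ± 0.13, adjusted p = 0.396). Its conjugation machinery moved unevenly. HERC6, the main ISG15 ligase in mouse and a relative of the human ligase HERC5, was at 1.72, 1.56 and 2.04 RPKM in LNCaP-EnzR shCXCR7 libraries, against 0.764, 0.729 and 0.659 RPKM in LNCaP-EnzR LKO libraries, and rose by 1.06 ± 0.17 (adjusted p = 0.00177; 0.99 ± 0.12, adjusted p = 0.00286, without replicate 3). In C4-2B-EnzR HERC6 was at 2.33, 2.04 and 2.42 RPKM in shCXCR7 against 1.60, 2.04 and 1.25 RPKM in LKO libraries, where LKO replicate 2 was level with the lowest shCXCR7 library and the test did not pass (0.44 ± 0.17, adjusted p = 0.0895). USP18, which removes ISG15 and dampens type I receptor signalling, rose by 0.46 ± 0.14 in LNCaP-EnzR (adjusted p = 0.0311; 0.53 ± 0.16, adjusted p = 0.0481, without replicate 3; up to 0.115 with replicate 2 or 3 of LKO, or 1 or 2 of shCXCR7, left out), and gave 0.48 ± 0.18 in C4-2B-EnzR (adjusted p = 0.0824). UBE2L6, the ISG15-conjugating enzyme, fell by 0.84 ± 0.25 in C4-2B-EnzR (adjusted p = 0.0374), on 2, 7 and 3 reads in shCXCR7 against 9, 9 and 14 reads in LKO libraries, and the call was lost with replicate 2 or 3 of LKO, or 1 or 3 of shCXCR7, left out (adjusted p up to 0.105).

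Restriction factors held the genes that fell most. Of 7 tested, 1 rose and 3 fell in LNCaP-EnzR, and 1 rose and 4 fell in C4-2B-EnzR. The IFITM genes, which encode small membrane proteins that block fusion of virus and cell, lie together on chromosome 11 (positions 303655 to 329475). IFITM2 was at 0.885, 0.770 and 1.40 RPKM in LNCaP-EnzR shCXCR7 libraries, against 3.81, 4.05 and 3.85 RPKM in LNCaP-EnzR LKO libraries. C4-2B-EnzR cells had IFITM2 at 2.21, 3.35 and 2.40 RPKM in shCXCR7 libraries, against 9.18, 11.6 and 8.59 RPKM in LKO libraries. All shCXCR7 libraries lay below the LKO libraries of their line, and the log2 fold change was -1.74 ± 0.18 for LNCaP-EnzR (limma adjusted p = 0.000162; -1.98 ± 0.10, adjusted p = 0.000436, without replicate 3) and -1.80 ± 0.18 in C4-2B-EnzR (adjusted p = 0.000759). IFITM3, the most abundant of them, was at 23.0, 22.7 and 19.5 RPKM in LNCaP-EnzR shCXCR7 libraries, against 37.0, 39.8 and 43.5 RPKM in LNCaP-EnzR LKO libraries, and at 42.2, 37.5 and 31.4 RPKM in C4-2B-EnzR shCXCR7 libraries, against 57.7, 56.7 and 70.1 RPKM in C4-2B-EnzR LKO libraries. It fell by 0.88 ± 0.10 in LNCaP-EnzR (adjusted p = 0.00028; -0.80 ± 0.075, adjusted p = 0.00155, without replicate 3) and fell by 0.73 ± 0.13 in C4-2B-EnzR (adjusted p = 0.00627), with no overlap between groups in either line.

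IFITM1, the third of the cluster, was the only tested gene of the 40 whose response differed between the lines. It was at 1.10, 1.57 and 1.81 RPKM in LNCaP-EnzR shCXCR7 libraries, against 0.802, 0.966 and 1.04 RPKM in LNCaP-EnzR LKO libraries, a difference that did not pass (0.54 ± 0.20, limma adjusted p = 0.0721; 0.42 ± 0.18, adjusted p = 0.126, without replicate 3). In C4-2B-EnzR it was at 0.789, 1.10 and 1.63 RPKM in shCXCR7 libraries, against 2.85, 3.02 and 2.99 RPKM in LKO libraries, and fell by 1.22 ± 0.21 (adjusted p = 0.00596). The shCXCR7 libraries of both lines covered much the same range, while the LKO libraries of C4-2B-EnzR lay above those of LNCaP-EnzR. The C4-2B-EnzR response minus the LNCaP-EnzR response was -1.75 ± 0.30 (adjusted p = 0.00398; -1.63, adjusted p = 0.00787, without LNCaP-EnzR shCXCR7 replicate 3). Counts were low, from 6 to 27 reads in each library. For the interaction, 0 of the 40 genes had a higher and 1 a lower response in C4-2B-EnzR, against 5.15% and 4.87% of all genes, and at an unadjusted p under 0.05 the counts were 3 and 4. A voom fit of the recovered reads also gave 0 and 1. The 3 IFITM genes are alike in sequence and neighbour each other, and how reads that fit several genes were counted, or whether strand was used, is not given in the sources used here.

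MX1, a GTPase that traps incoming influenza virus, rose in LNCaP-EnzR alone by the tests made. It was at 1.00, 1.62 and 1.86 RPKM in LNCaP-EnzR shCXCR7 libraries, against 0.445, 0.516 and 0.610 RPKM in LNCaP-EnzR LKO libraries, a log2 fold change of 1.14 ± 0.25 (limma adjusted p = 0.00719; 1.02 ± 0.22, adjusted p = 0.0177, without replicate 3). In C4-2B-EnzR it was at 0.597, 0.644 and 0.478 RPKM in shCXCR7 against 0.536, 0.451 and 0.477 RPKM in LKO libraries, and the groups overlapped (0.15 ± 0.15, adjusted p = 0.443). The difference between the lines did not pass (-0.99 ± 0.33, adjusted p = 0.0748). BST2 (tetherin), which holds budding virus at the cell surface, was at 13.97, 11.57 and 12.84 RPKM in C4-2B-EnzR shCXCR7 libraries, against 9.22, 8.40 and 8.10 RPKM in C4-2B-EnzR LKO libraries, and rose by 0.56 ± 0.091 (adjusted p = 0.00444). In LNCaP-EnzR BST2 stayed under 1 RPKM in all 6 libraries (0.05 ± 0.31, adjusted p = 0.917). TRIM22, an antiviral ubiquitin ligase, was at 0.650, 0.445 and 0.733 RPKM in LNCaP-EnzR shCXCR7 against 1.15, 1.49 and 1.02 RPKM in LNCaP-EnzR LKO libraries, and fell by 0.77 ± 0.23 there (adjusted p = 0.0309; -0.90 ± 0.20, adjusted p = 0.0199, without replicate 3) and fell by 0.54 ± 0.17 in C4-2B-EnzR (adjusted p = 0.0491). In each line 5 of 6 fits that left out 1 library lost this call (adjusted p up to 0.16 and 0.122), all but those without LNCaP-EnzR shCXCR7 replicate 3 and without C4-2B-EnzR LKO replicate 3. ISG20, an exonuclease that degrades viral RNA, passed in neither line.

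Of the ADP-ribosyltransferase group, 1 of 4 rose in LNCaP-EnzR and 2 of 4 in C4-2B-EnzR. DTX3L, a ubiquitin ligase that works as a complex with PARP9, was at 7.22, 6.82 and 6.06 RPKM in LNCaP-EnzR shCXCR7 libraries, against 4.14, 4.29 and 4.70 RPKM in LNCaP-EnzR LKO libraries. It rose by 0.59 ± 0.097 there (limma adjusted p = 0.00202; 0.66 ± 0.082, adjusted p = 0.00335, without replicate 3) and by 0.31 ± 0.091 in C4-2B-EnzR (adjusted p = 0.0344). PARP9 rose by 0.34 ± 0.098 in C4-2B-EnzR (adjusted p = 0.0329), and in LNCaP-EnzR its values overlapped between groups (-0.01 ± 0.088, adjusted p = 0.939). In C4-2B-EnzR both calls were lost in 5 of 6 fits that left out 1 library, all but that without LKO replicate 2 for DTX3L (adjusted p up to 0.101) and without LKO replicate 1 for PARP9 (up to 0.117). PARP9 and DTX3L are transcribed in opposite directions on chromosome 3 from starts that overlap by 240 bases, so without strand their reads could be mixed there. PARP12 passed in neither line. PARP14 was at 0.0745, 0.0811 and 0.777 RPKM in LNCaP-EnzR shCXCR7 libraries, against 0.0995, 0.0654 and 0.0429 RPKM in LNCaP-EnzR LKO libraries, so its mean rise there rested on replicate 3 (0.59 ± 0.65 with it and 0.05 ± 0.14 without it, adjusted p = 0.529 and 0.821).

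The remaining genes have less settled roles, and 4 of 6 tested rose and 1 fell in LNCaP-EnzR, while 3 rose and 1 fell in C4-2B-EnzR. LGALS3BP, a secreted galectin-binding glycoprotein, lies on chromosome 17 (positions 78971238 to 78979947, minus strand). It was at 12.7, 13.7 and 13.6 RPKM in LNCaP-EnzR shCXCR7 libraries, against 5.01, 4.99 and 4.68 RPKM in LNCaP-EnzR LKO libraries, and at 14.9, 12.2 and 14.2 RPKM in C4-2B-EnzR shCXCR7 libraries, against 7.05, 6.25 and 6.15 RPKM in C4-2B-EnzR LKO libraries. The replicates lay close together and the groups far apart, with log2 fold changes of 1.40 ± 0.079 in LNCaP-EnzR (limma adjusted p = 1.27e-05; 1.39 ± 0.067, adjusted p = 0.000426, without replicate 3) and 1.06 ± 0.098 in C4-2B-EnzR (adjusted p = 0.000612). IFI27, a mitochondrial interferon-induced protein, was at 0.390, 0.679 and 1.24 RPKM in LNCaP-EnzR shCXCR7 libraries, against 0.116, 0.0380 and 0 RPKM in LNCaP-EnzR LKO libraries, and at 1.07, 0.738 and 1.96 RPKM in C4-2B-EnzR shCXCR7 libraries, against 0.247, 0 and 0.0959 RPKM in C4-2B-EnzR LKO libraries. The LKO values rest on 0 to 5 reads, and the groups did not overlap. IFI27 passed the filter only through shCXCR7 libraries, so its rise and its place in the counts above are given as descriptions. The log2 fold change was 1.69 ± 0.46 for LNCaP-EnzR (adjusted p = 0.0209; 1.47 ± 0.26, adjusted p = 0.00994, without replicate 3; up to 0.0696 with replicate 2 or 3 of LKO, or 2 of shCXCR7, left out) and 2.025 ± 0.37 in C4-2B-EnzR (adjusted p = 0.00671). IFI6, also a mitochondrial protein and described as a survival factor, moved the other way: it was at 10.2, 7.99 and 8.16 RPKM in LNCaP-EnzR shCXCR7 libraries, against 12.7, 12.8 and 13.0 RPKM in LNCaP-EnzR LKO libraries, and at 11.9, 12.7 and 10.4 RPKM in C4-2B-EnzR shCXCR7 libraries, against 17.4, 15.1 and 16.1 RPKM in C4-2B-EnzR LKO libraries. It fell by 0.54 ± 0.10 in LNCaP-EnzR (adjusted p = 0.00388; -0.50 ± 0.11, adjusted p = 0.017, without replicate 3) and fell by 0.47 ± 0.095 in C4-2B-EnzR (adjusted p = 0.00988).

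IFI44 rose by 0.82 ± 0.23 in LNCaP-EnzR (limma adjusted p = 0.0261; 0.75 ± 0.17, adjusted p = 0.0203, without replicate 3; up to 0.102 with replicate 2 or 3 of LKO, or 1 or 2 of shCXCR7, left out), and its groups overlapped in C4-2B-EnzR (0.40 ± 0.31, adjusted p = 0.346). IFI35 rose by 0.32 ± 0.10 in LNCaP-EnzR (adjusted p = 0.0352), and every fit that left out 1 of the 6 libraries lost that call (adjusted p = 0.0741 without replicate 3 of shCXCR7, up to 0.155). SP110, a nuclear body protein, rose by 0.42 ± 0.13 in C4-2B-EnzR (adjusted p = 0.0416; up to 0.122 without any 1 library other than shCXCR7 replicate 1), and in LNCaP-EnzR it passed only without replicate 3 (0.41 ± 0.092, adjusted p = 0.02, against 0.32 ± 0.11, adjusted p = 0.0627, with it). For the 19 genes that did not pass in LNCaP-EnzR the log2 fold changes ran from -0.28 to 0.80, and for the 21 in C4-2B-EnzR from -0.39 to 0.66. Of the calls, 14 of 21 in LNCaP-EnzR and 11 of 19 in C4-2B-EnzR held with each library of the line left out in turn.

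The 7 genes below the filter were OAS1, OAS2, MX2, SAMD9, SAMD9L, IFI44L and XAF1, and all but OAS1 stayed under 0.5 RPKM as deposited in the 11 libraries other than LNCaP-EnzR shCXCR7 replicate 3. That library carried 63 reads of MX2, 59 of SAMD9L, 47 of IFI44L and 41 of XAF1, against 0 to 2 reads of each in the other 11 libraries. OAS1 was at 0.397, 0.880 and 1.22 RPKM in LNCaP-EnzR shCXCR7 libraries, against 0.386, 0.253 and 0.291 RPKM in LNCaP-EnzR LKO libraries, where all 3 shCXCR7 values were the higher, and it was not tested.

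**Figure D3:**
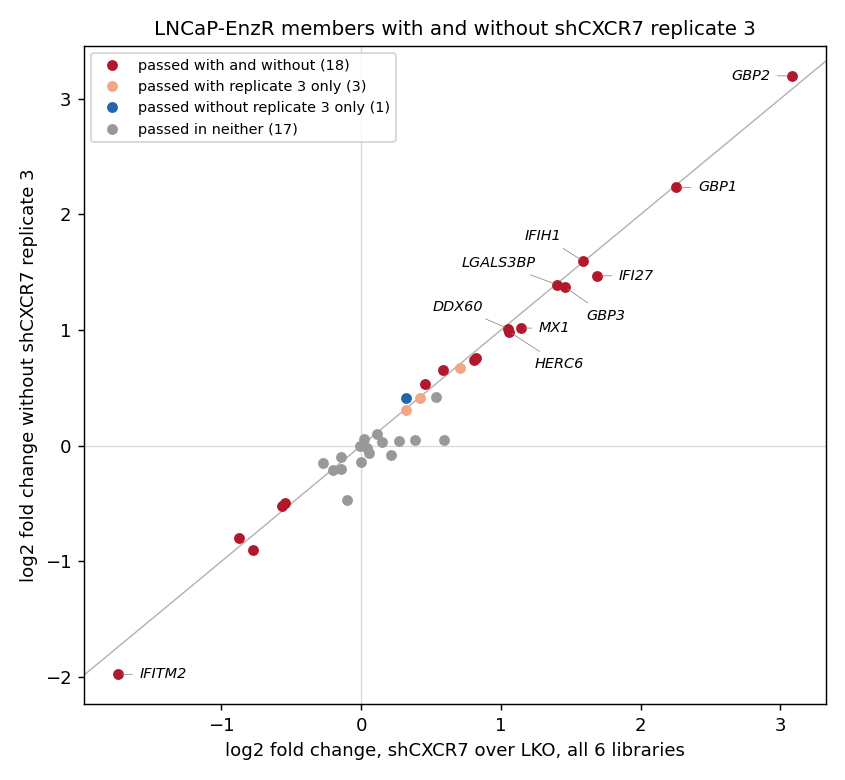
Log2 fold change of shCXCR7 over LKO in LNCaP-EnzR for the 39 genes tested both ways, with all 6 libraries (x axis) and without shCXCR7 replicate 3 (y axis), with the line of equality and genes at 2-fold or more named. 18 genes passed both ways, 3 (OASL, IFIT5 and IFI35) with replicate 3 alone, 1 (SP110) without it alone, and 17 in neither.

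Control cells of the 2 lines were also compared. In LKO libraries, 8 of the 40 genes were higher and 14 lower in C4-2B-EnzR than in LNCaP-EnzR, against 30.4% and 29.6% of all genes, with a median log2 fold change of -0.08 against 0.0037 over all. For this comparison values were rescaled over all 12 libraries. PARP14 was at 3.55, 3.17 and 3.09 RPKM in C4-2B-EnzR LKO libraries, against 0.108, 0.0712 and 0.0469 RPKM in LNCaP-EnzR LKO libraries (log2 fold change 3.44 ± 0.36, limma adjusted p = 3.81e-06). BST2 was at 8.39, 7.63 and 7.31 RPKM in C4-2B-EnzR LKO libraries, against 0.614, 0.673 and 0.886 RPKM in LNCaP-EnzR LKO libraries (3.05 ± 0.21, adjusted p = 1.22e-07). Both were at a low level in LNCaP-EnzR and plainly present in C4-2B-EnzR, with no overlap. IFITM1 (1.21 ± 0.21, adjusted p = 0.000279), IFITM2 (1.01 ± 0.19, adjusted p = 0.000454) and IRF7 (0.67 ± 0.11, adjusted p = 0.000221) were also higher in C4-2B-EnzR LKO libraries. The RNA sensor gene IFIH1 was lower there, at 0.371, 0.417 and 0.458 RPKM in C4-2B-EnzR LKO libraries, against 1.39, 0.896 and 1.23 RPKM in LNCaP-EnzR LKO libraries (-1.08 ± 0.18, adjusted p = 0.000218). DDX60 (-1.05 ± 0.25), OASL (-1.11 ± 0.24), ISG20 (-1.015 ± 0.17), TRIM22 (-1.19 ± 0.24) and IFI44 (-1.27 ± 0.33) were lower too, at adjusted p from 0.00024 to 0.00488. The GBP genes did not pass in this comparison, with log2 fold changes of -0.11 for GBP2, -0.07 for GBP1 and -0.02 for GBP3.

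**Figure D4:**
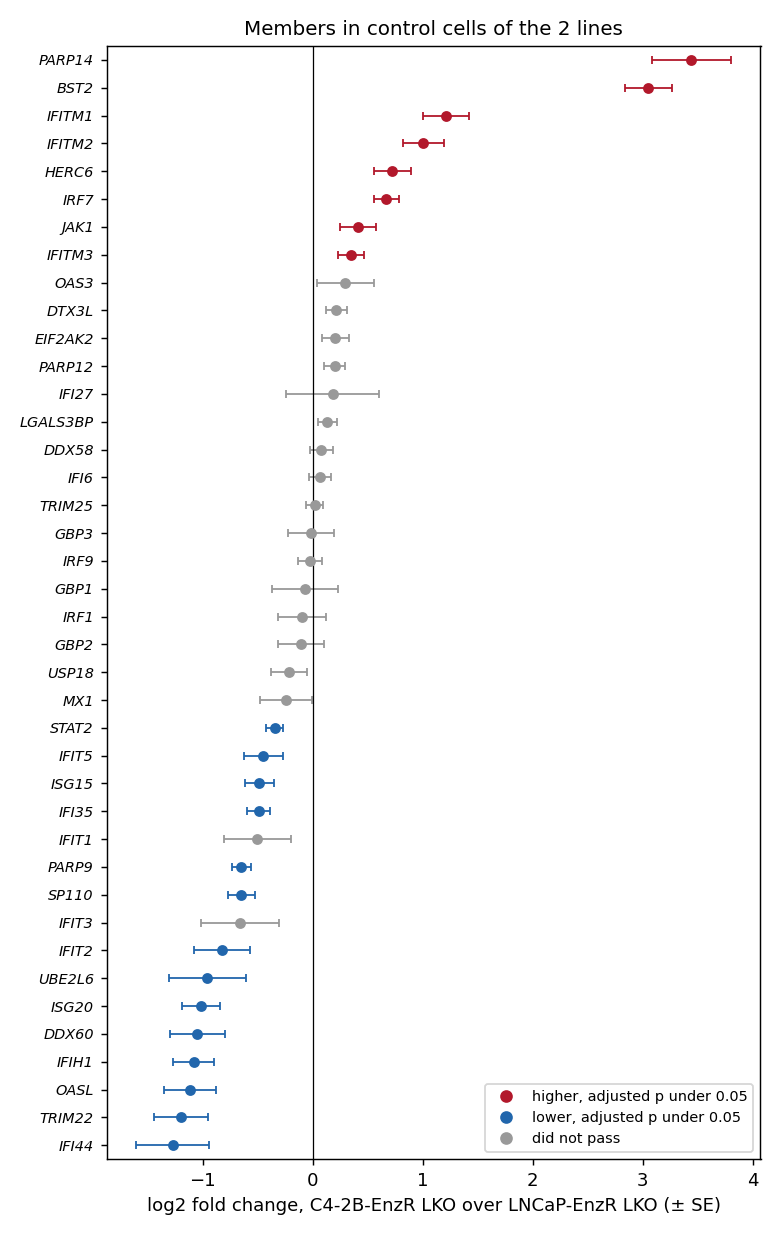
Log2 fold change of C4-2B-EnzR LKO over LNCaP-EnzR LKO (x axis, with SE, 3 libraries a group) for the 40 tested genes (y axis, in order of the change). Red points are higher and blue points lower at an adjusted p under 0.05, grey points did not pass; PARP14 and BST2 stand out at 3.44 and 3.05, and IFI44 is lowest at -1.27.

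Other genes of the pathway were taken from lists drawn up with earlier results known. The LNCaP-EnzR calls named from these lists also passed without replicate 3 of shCXCR7, with TNFSF10 as the exception. Their counts are to be read against the shares over all genes, which were 14.4% higher and 18.7% lower in LNCaP-EnzR and 19.3% each way in C4-2B-EnzR. Of 18 tested JAK-STAT signalling genes, 4 rose and 5 fell in LNCaP-EnzR and 5 rose and 4 fell in C4-2B-EnzR, with median log2 fold changes of 0.0087 and 0.15. The inhibitors SOCS1 (1.48 ± 0.23 in LNCaP-EnzR cells and 1.04 ± 0.19 in C4-2B-EnzR, limma adjusted p = 0.00138 and 0.00627), SOCS2 (1.17 ± 0.10 and 0.97 ± 0.12, adjusted p = 7.05e-05 and 0.00179) and PIAS4 (1.14 ± 0.086 and 0.69 ± 0.091, adjusted p = 3.83e-05 and 0.00203) rose in both lines. Of 17 tested genes of nucleic acid sensing, 2 rose and 4 fell in LNCaP-EnzR and 5 rose and 4 fell in C4-2B-EnzR (medians 0.035 and 0.11). TLR3, the endosomal sensor of double-stranded RNA, was at 1.75, 1.48 and 1.88 RPKM in LNCaP-EnzR shCXCR7 libraries, against 0.631, 0.456 and 0.788 RPKM in LNCaP-EnzR LKO libraries, and rose by 1.17 ± 0.21 in LNCaP-EnzR (adjusted p = 0.00271) and by 1.37 ± 0.18 in C4-2B-EnzR (adjusted p = 0.00223). Of 7 tested IRF family genes, 1 rose and 2 fell in LNCaP-EnzR and 2 rose and 1 fell in C4-2B-EnzR.

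Among 40 tested interferon-stimulated genes outside the 47, 11 rose and 4 fell in LNCaP-EnzR and 10 rose and 4 fell in C4-2B-EnzR, with medians of 0.14 and 0.10. HERC5, NMI and TNFSF10 passed the filter only through shCXCR7 libraries, and without them 9 of 37 rose and 4 fell in each line. NLRC5, the transactivator of MHC class I genes, was at 1.80, 2.01 and 3.14 RPKM in LNCaP-EnzR shCXCR7 libraries, against 0.413, 0.300 and 0.369 RPKM in LNCaP-EnzR LKO libraries, and rose by 2.04 ± 0.23 in LNCaP-EnzR (limma adjusted p = 0.000269; 1.87, adjusted p = 0.000897, without replicate 3) and by 1.23 ± 0.19 in C4-2B-EnzR (adjusted p = 0.00341). SHISA5 rose by 1.15 ± 0.12 in LNCaP-EnzR and by 0.72 ± 0.062 in C4-2B-EnzR (adjusted p = 0.00014 and 0.000479). HERC5, the human ISG15 ligase, rose by 1.28 ± 0.34 in LNCaP-EnzR (adjusted p = 0.0182; 1.14, adjusted p = 0.0166, without replicate 3), and TNFSF10, the death ligand TRAIL, by 1.12 ± 0.33 (adjusted p = 0.0293), though it was not testable without replicate 3. As genes that had to be high in shCXCR7 to be tested, both are given as descriptions. Of 9 tested NF-kB and inflammatory targets, 1 rose and 2 fell in LNCaP-EnzR and 1 rose and 3 fell in C4-2B-EnzR, with LIF, a cytokine that signals through STAT3, lower at -0.73 ± 0.14 and -1.08 ± 0.23 (adjusted p = 0.00408 and 0.0108).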

How the data were processed

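RNA-seq libraries were made from total RNA with a NEBNext Ultra kit. The authors mapped reads to hg38 with STAR, counted them per gene and deposited 1 table of RPKM for 12 libraries. The sources used here do not give the annotation, the strand setting, the handling of reads that fit several genes or which of the study's hairpins against CXCR7 these libraries carry. Of its genes, 26439 were kept after empty and repeated symbols were left out. Whole reads were recovered from the steps of the deposited RPKM for all 25028 genes above 0. Values were rescaled by median-of-ratios factors, within each line or, to compare control cells of the lines, over the 12 libraries, and log2(RPKM + 0.25) was fitted with limma 3.58.1 (R 4.3.3) with a variance trend. Genes needed 0.5 RPKM in 3 libraries. P-values are two-sided and Benjamini-Hochberg adjusted over the 14202 genes. With 3 libraries against 3, an exact permutation test cannot go below p = 0.1, so none was used. Python 3.11.15 with pandas 2.3.3 and matplotlib 3.10.9 made the motif counts and figures.

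The genes, lists, tests and alternatives were chosen with earlier results of these data known. Genes called at 2-fold or more in either line are given library by library, other called genes by fold change, and the rest by counts or range. Of the other lists, at most 6 called genes at 2-fold or more in either line are named, with some genes not reported here, and IFNAR2 was named after its values were seen. Alternatives were other scaling, pseudocounts and filters, robust variances, a replicate block, 1 fit of all libraries, background subtraction, voom on the recovered reads and leaving out each library. The counts of genes with an LKO library at 0.5 RPKM or more were added after the data were seen.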

Additional observations from a re-analysis of the deposited data

Results flagged for a closer look

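The response of IFITM1 differed between the lines. The C4-2B-EnzR response minus the LNCaP-EnzR response was -1.754 on the log2 scale (SE 0.298, limma adjusted p = 0.00398), as a test of the interaction over all 12 libraries. In LNCaP-EnzR all 3 shCXCR7 libraries lay above the 3 LKO libraries, but that rise did not pass (0.54 ± 0.20, limma adjusted p = 0.0721). In C4-2B-EnzR all 3 shCXCR7 libraries lay below, and that fall passed (-1.22 ± 0.21, adjusted p = 0.00596). With each of the 12 libraries left out in turn, the adjusted p ran from 0.00259 to 0.0124. With the values as deposited, without rescaling, the difference was -1.474 (adjusted p = 0.0971). The gene rests on 6 to 27 reads in each library, and its sequence is close to those of IFITM2 and IFITM3, which fell in both lines.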

How the results depend on the processing

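No called gene changed direction under any alternative run. The values as deposited, without rescaling, gave 5 genes higher and 1 lower in LNCaP-EnzR shCXCR7, 0 with a lower response in C4-2B-EnzR than in LNCaP-EnzR, and 7 lower in C4-2B-EnzR LKO than in LNCaP-EnzR LKO. In that table the replicate with few reads in genes has low RPKM in most expressed genes. The stricter filter (1 RPKM in 6 libraries) tested 28 of the genes and gave 10 higher in LNCaP-EnzR shCXCR7 and 9 lower in C4-2B-EnzR LKO. Counting only genes with an LKO library at 0.5 RPKM or more, chosen after seeing the data, gave 7 higher in C4-2B-EnzR shCXCR7, against 11. The replicate numbers did not pair the libraries. Each gene's deviation from its group mean was correlated over genes between the shCXCR7 and LKO libraries of a line. For same-numbered libraries these correlations ran from -0.096 to 0.0423, and not every library correlated best with its own number. The replicate block gave 14 higher and 4 lower in LNCaP-EnzR and 7 higher and 5 lower in C4-2B-EnzR. Leaving out each library in turn gave 10 to 14 higher and 4 to 5 lower in LNCaP-EnzR, 7 to 10 higher and 4 to 7 lower in C4-2B-EnzR, 0 with a higher and 1 to 2 with a lower response in C4-2B-EnzR, and 6 to 9 higher and 11 to 14 lower in C4-2B-EnzR LKO. The cause of these moves was not tested beyond fewer libraries or genes. Of the 21 calls in LNCaP-EnzR, 5 (GBP1, GBP2, GBP3, IFIH1 and IFITM2) held under every alternative in which they were tested, and 11 of 19 did in C4-2B-EnzR. GBP1 and IFI27 rest on 0 to 5 reads in each LKO library, which limits the precision of their fold changes.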
